A study of Mus musculus with 6 samples.

Results

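The ankyrin repeat and SOCS box (ASB) proteins are substrate receptors of ubiquitin ligases, and this account follows 10 of their genes, Asb1, Asb2, Asb5, Asb8, Asb10, Asb11, Asb12, Asb14, Asb15 and Asb18, in the mouse left ventricle. The 10 genes were taken by symbol from a table of 52550 genes, and each symbol was found. The level set for testing was an average of 1 FPKM across the 6 libraries, which all 10 reached, as did 9907 genes in all. FPKM are fragments per length of transcript and per mapped depth of a library, so that levels of different genes can be set side by side. The tissue came from C57BL/6J mice aged 12 months, with 3 libraries labelled PKI, the group labelled as overexpressing PGC1alpha, and 3 labelled wild-type (WT). The labels do not say how PGC1alpha was raised, in which cells, or whether each library came from a separate animal, so any p-value reflects only how these samples varied, and that variation may be technical.

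ASB proteins carry ankyrin repeats, which bind a substrate, and a C-terminal SOCS box, which binds the adaptor proteins elongin B and elongin C. Through them the receptor joins the scaffold cullin 5 and the RING protein RNF7, and the complex attaches ubiquitin to the bound substrate. Several ASB genes are expressed mainly in striated muscle, and the best studied of them, Asb2, directs the breakdown of filamin A, a large actin cross-linker.

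The 10 genes were picked with the differences between the groups in these libraries already known. Their differences are therefore given as a description, with no test of their own, and nothing is supported by them. Ppargc1a, which encodes PGC1alpha, was at 11.6, 11.8 and 11.4 FPKM in libraries labelled PKI, against 14.2, 12.8 and 12.4 FPKM in WT libraries. The gene that the label names was thus lower, not higher, in every library labelled PKI (exact two-sided permutation test, p = 0.1, the smallest that 20 arrangements allow; limma over all genes, log2 change −0.16, SE 0.07, adjusted p = 0.0967), and every direction below rests on the labels PKI and WT as given. All tested genes together were shifted upwards, with a median log2 change of 0.21 as deposited and of 0.01 after dividing by median-of-ratios size factors, which is called "after scaling" below. Genes of the mitochondrial genome and their nuclear copies held 78.0% to 78.2% of all FPKM in libraries labelled PKI and 81.8% to 82.3% in WT libraries.

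The stretches of 250 bases upstream of a RefSeq start site are shown for 5 of the genes (RefSeq, GRCm38.p6, each on the strand of its gene, 5′ to 3′). They are Asb14, Asb15 and Asb10, which were lower in libraries labelled PKI, Asb2, the most abundant member, and Asb18, which shares a motif with Asb14 but was not called. Capitals mark matches, on either strand, to the sites of the muscle factor MEF2, to the CArG box bound by serum response factor, to the MCAT element CATTCC bound by TEAD factors, to the GATA letters AGATAA and to the element TNAAGGTCA of the ERR receptors, which PGC1alpha coactivates.
Asb14: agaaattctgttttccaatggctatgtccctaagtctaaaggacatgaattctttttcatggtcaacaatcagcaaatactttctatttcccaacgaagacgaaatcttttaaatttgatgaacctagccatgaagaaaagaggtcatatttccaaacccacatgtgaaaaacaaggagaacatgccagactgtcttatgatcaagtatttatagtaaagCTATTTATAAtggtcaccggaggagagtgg
Asb15: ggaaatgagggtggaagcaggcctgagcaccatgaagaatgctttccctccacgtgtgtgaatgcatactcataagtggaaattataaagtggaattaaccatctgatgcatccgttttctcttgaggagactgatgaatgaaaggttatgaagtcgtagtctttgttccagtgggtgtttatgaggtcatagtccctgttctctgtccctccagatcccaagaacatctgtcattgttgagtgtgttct
Asb10: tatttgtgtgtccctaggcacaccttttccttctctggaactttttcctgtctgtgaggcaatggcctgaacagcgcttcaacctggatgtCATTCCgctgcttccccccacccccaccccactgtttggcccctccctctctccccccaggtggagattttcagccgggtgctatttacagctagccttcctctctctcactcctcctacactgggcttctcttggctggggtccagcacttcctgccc
Asb2: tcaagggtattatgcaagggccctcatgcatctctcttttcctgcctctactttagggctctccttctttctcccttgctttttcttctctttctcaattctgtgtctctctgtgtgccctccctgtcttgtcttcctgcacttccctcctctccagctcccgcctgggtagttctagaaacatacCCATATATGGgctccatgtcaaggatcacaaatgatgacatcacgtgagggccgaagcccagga
Asb18: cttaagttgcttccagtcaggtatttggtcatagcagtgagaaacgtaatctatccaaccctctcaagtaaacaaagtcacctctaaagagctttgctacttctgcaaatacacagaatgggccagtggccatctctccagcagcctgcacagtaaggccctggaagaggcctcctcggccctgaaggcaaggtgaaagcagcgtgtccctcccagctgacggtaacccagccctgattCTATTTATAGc
The windows are chr14:26894364-26894613 for Asb14, chr6:24527894-24528143 for Asb15, chr5:24540979-24541228 for Asb10, chr12:103356002-103356251 for Asb2 and chr1:90014667-90014916 for Asb18.

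All 10 genes matched the promoter table, with 15 start sites and as many windows between them. Set against the gene spans of GENCODE M21, 5 windows lay before the gene (those shown for Asb2, Asb10, Asb15 and Asb18, and that of Asb11), 3 ran partly into it and 7 lay inside it, so that many stand before an internal start. A MEF2 site was found in 4 of the 15 windows (1 each of Asb5, Asb12, Asb14 and Asb18), and 2.92% of all 32851 windows of that length held one. Of these only the window of Asb18 lay before its gene, that of Asb14 ended 57 bases into the gene, and those of Asb5 and Asb12 lay inside it. In Asb14 the match, CTATTTATAA, lay 21 to 30 bases before the RefSeq start, and in Asb18 the match, CTATTTATAG, lay 2 to 11 bases before it. A CArG box was found in 2 of the 15 windows, of Asb2 (CCATATATGG, 55 to 64 bases before the start) and of Asb5 (inside the gene), and in 1.47% of all windows. CATTCC was found in 2 windows, of Asb8 and Asb10 (12.6% of all windows), and AGATAA in 1, of Asb12 (9.99%). The ERR element matched in 0 of the 15 windows and in 1.14% of all windows. At so low a share most sets of 15 windows would hold none, so nothing is read from its absence. The letters CANNTG of the E-box, left in lower case here, were found in 9 of the 15 windows and in 66.2% of all windows. Across these windows, Asb14 with a MEF2 match was lower, while Asb18, Asb12 and Asb5, which also held one, overlapped between the groups as deposited. After scaling, Asb5 was called lower, Asb18 no longer overlapped but was not called, and Asb12 still overlapped. Whether the motif bears on these levels was not tested. A match is a description of the letters and not evidence of binding.

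The order of levels was nearly the same in all 6 libraries. Asb2 was first in every library, at 70.3 to 86.3 FPKM in libraries labelled PKI and 68.4 to 74.7 FPKM in WT libraries, and Asb8 was second in every library. Asb15, Asb5, Asb18, Asb12 and Asb1 held the sixth to the last place in every library. The places between were exchanged: Asb11 ranked 4, 3 and 3 in libraries labelled PKI and 5 in all 3 WT libraries, and Asb14 ranked 5 in all 3 libraries labelled PKI and 4 in all 3 WT libraries. In WT libraries Asb10, Asb14 and Asb11 kept the same order in each library, although their ranges over the 3 libraries overlapped, whereas in libraries labelled PKI the 3 values of Asb14 lay below all those of Asb10 and Asb11.

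**Figure D1:**
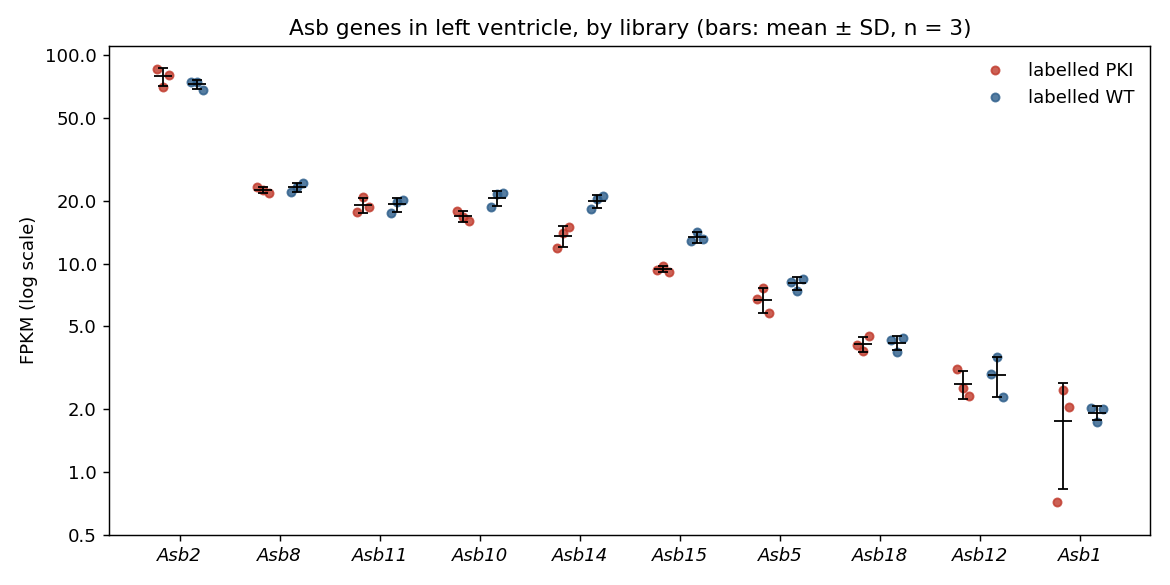
FPKM of each of the 10 Asb genes in each library on a log axis, with libraries labelled PKI in red to the left of WT libraries in blue, and black bars for the mean and SD of 3 libraries. The red points of Asb14, Asb15 and Asb10 lie below all their blue points, and in the other 7 genes red and blue overlap.

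Asb14, Asb15 and Asb10 were lower in libraries labelled PKI, and 0 of the 10 genes were called higher in limma (also 0 at an unadjusted p under 0.05). In the limma fit over all genes (log2(FPKM + 1), adjusted p under 0.05), 3 of the 10 passed, all of them lower. Over all tested genes, 2.96% were called lower and 36.4% higher, and since the genes were picked on this contrast, nothing is read from that comparison. The same 3 genes were those whose 3 values in libraries labelled PKI were all under the lowest WT value, as were those of 4.53% of all tested genes. In tissue of many cell types, fewer cells of a type and less RNA per cell cannot be told apart.

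Asb14 (ENSMUSG00000021898, chromosome 14: 26894557 to 26915258, plus strand, GRCm38), a member expressed in striated muscle, was at 11.9, 14.1 and 14.9 FPKM in libraries labelled PKI, against 18.3, 20.3 and 21.2 FPKM in WT libraries. The highest library labelled PKI lay below the lowest WT library. The means were 13.6 ± 1.57 FPKM in libraries labelled PKI and 19.9 ± 1.48 FPKM in WT (SD, n = 3 each), a ratio of 0.682. The log2 change was −0.52 (SE 0.10) as deposited and −0.77 (SE 0.10) after scaling. Among all tested genes, 0.96% had a more negative log2 change as deposited.

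Asb15 (ENSMUSG00000029685, chromosome 6: 24528144 to 24573164, plus strand), which has been studied in the growth of cultured muscle cells, was at 9.29, 9.74 and 9.15 FPKM in libraries labelled PKI, against 12.8, 14.2 and 13.1 FPKM in WT libraries. The groups did not overlap, and the 3 libraries labelled PKI lay closer together than the WT libraries (coefficient of variation 3.30% in libraries labelled PKI and 5.58% in WT libraries). The log2 change was −0.47 (SE 0.07) as deposited and −0.70 (SE 0.07) after scaling, with a ratio of means of 0.703. Asb14 and Asb15 kept their calls in all 6 fits that left out a library, with log2 changes of −0.59 to −0.43 for Asb14 and −0.49 to −0.42 for Asb15.

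Asb10 (ENSMUSG00000038204, chromosome 5: 24532697 to 24540978, minus strand), whose human counterpart has been linked to glaucoma, was at 17.9, 16.8 and 15.9 FPKM in libraries labelled PKI, against 18.6, 21.5 and 21.8 FPKM in WT libraries. The groups did not overlap, but the highest library labelled PKI came close to the lowest WT library. The log2 change was −0.27 (SE 0.08) as deposited and −0.52 (SE 0.09) after scaling. Its call was lost in 5 of the 6 fits that left out a library, all but the one without WT replicate 1, with log2 changes of −0.34 to −0.23 over the 6. The call was also lost without a filter on low values and with the replicate number as a block.

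Asb5 (ENSMUSG00000031519, chromosome 8: 54529580 to 54587842, plus strand), first described in growing collateral arteries of rabbits, stood between the genes that were called and those that were not. It was at 6.73, 7.63 and 5.78 FPKM in libraries labelled PKI, against 8.20, 7.41 and 8.48 FPKM in WT libraries. The second library labelled PKI lay above the second WT library, and the gene was not called as deposited (log2 change −0.23, SE 0.10). It was called lower after scaling (log2 change −0.46, SE 0.10), where the groups no longer overlapped. The annotated gene overlaps the start of Spcs3 on the opposite strand, which was listed at a mean of 14.1 FPKM, and the library kit does not mark strand, so reads of the shared stretch cannot be told apart.

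Asb2 (ENSMUSG00000021200, chromosome 12: 103321142 to 103356001, minus strand) was at 86.3, 70.3 and 80.5 FPKM in libraries labelled PKI, against 74.5, 74.7 and 68.4 FPKM in WT libraries. The groups overlapped, and the second library labelled PKI lay below 2 WT libraries. Its log2 change was 0.12 (SE 0.09) as deposited and −0.14 (SE 0.09) after scaling, so that its direction depended on the scaling and it was not called under either; it was called higher under 1 of the other scalings, given with the cardiomyocyte markers. The deposited value does not separate the transcripts that start at the 2 annotated promoters.

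Asb8 (ENSMUSG00000048175, chromosome 15: 98134637 to 98165625) had the smallest relative spread of the 10 genes, at 23.2, 22.5 and 21.9 FPKM in libraries labelled PKI, against 22.0, 23.3 and 24.3 FPKM in WT libraries. The groups overlapped as deposited (log2 change −0.04, SE 0.06), and after scaling the gene was called lower (log2 change −0.29, SE 0.07). Asb11 (ENSMUSG00000031382, chromosome X: 164436994 to 164459170), whose zebrafish counterpart acts in Notch signalling, was at 17.7, 20.8 and 18.6 FPKM in libraries labelled PKI, against 17.6, 19.8 and 20.3 FPKM in WT libraries. As deposited both groups spanned nearly the same range, with a log2 change of −0.01 (SE 0.09). After scaling the log2 change of Asb11 was −0.26 (SE 0.09) and the groups no longer overlapped. The highest library labelled PKI (18.8) and the lowest WT library (18.9) then nearly met. Asb11 was not called under either.

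Asb18 (ENSMUSG00000067081, chromosome 1: 89950220 to 90014666) was at 4.05, 3.79 and 4.47 FPKM in libraries labelled PKI, against 4.31, 3.78 and 4.40 FPKM in WT libraries. Asb12 (ENSMUSG00000031204, chromosome X: 95470201 to 95557987) was at 3.11, 2.52 and 2.31 FPKM in libraries labelled PKI, against 2.95, 3.55 and 2.28 FPKM in WT libraries. Neither separated the groups as deposited, with log2 changes of −0.02 (SE 0.08) for Asb18 and −0.10 (SE 0.14) for Asb12. After scaling the log2 changes were −0.23 (SE 0.08) for Asb18 and −0.29 (SE 0.14) for Asb12. The groups then no longer overlapped for Asb18 but still did for Asb12, and neither gene was called under either.

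Asb1 (ENSMUSG00000026311, chromosome 1: 91540544 to 91559589), whose loss in mice affects the testis, had 1 library apart from the rest. It was at 0.717, 2.48 and 2.06 FPKM in libraries labelled PKI, against 2.02, 1.74 and 2.01 FPKM in WT libraries. The first library labelled PKI was the lowest of the 6 and the second the highest. The log2 change was −0.15 (SE 0.24) with all libraries and 0.16 without the first library labelled PKI, and the gene was not called in either fit.

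**Figure D2:**
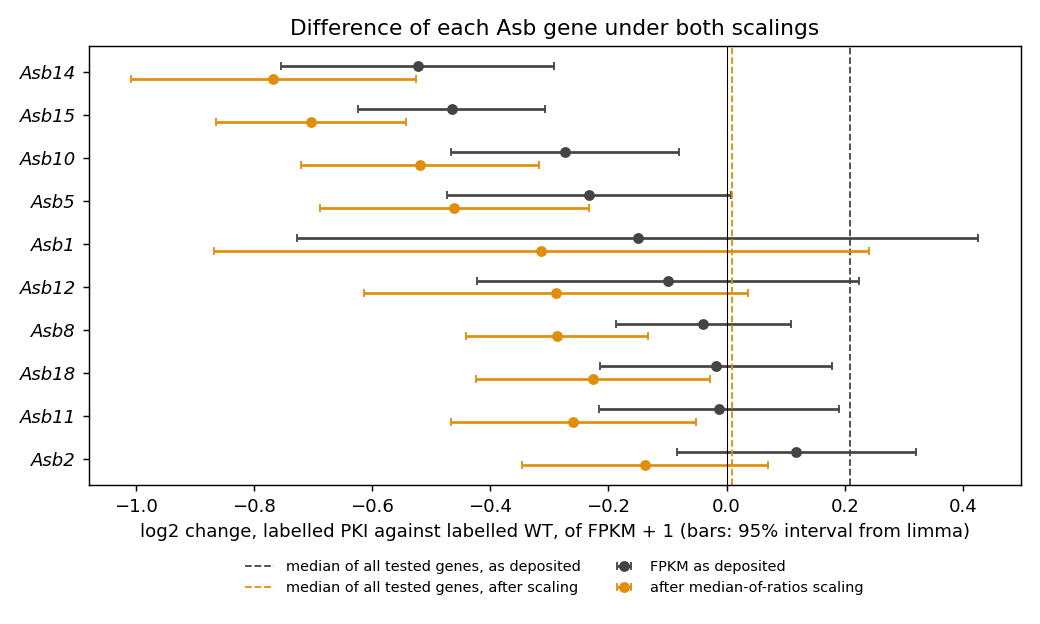
Log2 change of each Asb gene between libraries labelled PKI and WT (positive is higher in PKI), with 95% intervals from limma, as deposited in grey and after median-of-ratios scaling in orange; dashed lines mark the median of all tested genes. The grey points run from −0.52 (Asb14) to 0.12 (Asb2), and all lie left of the grey dashed line at 0.21.

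All 10 genes had a log2 change below the median of all tested genes, both as deposited and after scaling. Their median log2 change was −0.12 as deposited, against 0.21 over all tested genes, and −0.30 after scaling, against 0.01. After scaling, 5 of the 10 were called lower (Asb5, Asb8, Asb10, Asb14 and Asb15) and 0 higher, while 7.62% of all tested genes were called lower and 8.93% higher; when scaled to the FPKM total without mitochondrial genes the same 5 were called lower, with 6.09% of all tested genes. After median-of-ratios scaling, 7 of the 10 had all 3 libraries labelled PKI under the lowest WT library, as had 17.2% of all tested genes. Asb2 lay closest to the median of all genes, 0.09 below it as deposited, and Asb14 farthest, 0.73 below it. The 7 cardiomyocyte markers described below had values as low as these, with a median log2 change of −0.16 as deposited and −0.41 after scaling. Scaling shifts every gene down by a similar amount, so that it lends no further weight to the genes that were already lower.

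The make-up of the family within a library does not depend on scaling between libraries. Asb2 made up 47.7%, 41.2% and 45.8% of the summed FPKM of the 10 genes in libraries labelled PKI, against 41.1%, 39.2% and 36.7% in WT libraries. The groups did not overlap, although the lowest library labelled PKI and the highest WT library nearly met. Asb14 made up 7.76% ± 1.05 in libraries labelled PKI and 10.7% ± 0.640 in WT libraries (SD, n = 3 each), and Asb15 5.35% ± 0.311 in libraries labelled PKI and 7.18% ± 0.244 in WT libraries (SD, n = 3 each). Shares must add up, so a lower share of some members raises that of others.

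Ratios to Asb2 were taken for Asb14, Asb15 and Asb10, the members already called lower. Asb2 was the only member with a positive log2 change as deposited. Separation of these ratios is therefore largely set by the choice of genes and lends no further weight. The ratio of Asb14 to Asb2 was 0.137, 0.200 and 0.185 in libraries labelled PKI, against 0.246, 0.272 and 0.310 in WT libraries. The groups did not overlap. The ratio of Asb15 to Asb2 was 0.108, 0.139 and 0.114 in libraries labelled PKI, against 0.171, 0.190 and 0.191 in WT libraries, and that of Asb10 to Asb2 was 0.215 ± 0.0216 in libraries labelled PKI and 0.285 ± 0.0343 in WT libraries (SD, n = 3 each). Asb14 against Asb15 gave 1.45 ± 0.175 in libraries labelled PKI and 1.49 ± 0.107 in WT libraries, a difference smaller than the spread. The ratio of Asb14 to Asb11, a gene at a like level in WT libraries, was 0.715 ± 0.0740 in libraries labelled PKI and 1.04 ± 0.00976 in WT libraries. The summed FPKM of the 10 genes was 171 to 181 in libraries labelled PKI and 181 to 190 in WT libraries, and without Asb2 it was 94.6 to 100.4 in libraries labelled PKI and 107 to 118 in WT libraries.

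**Figure D3:**
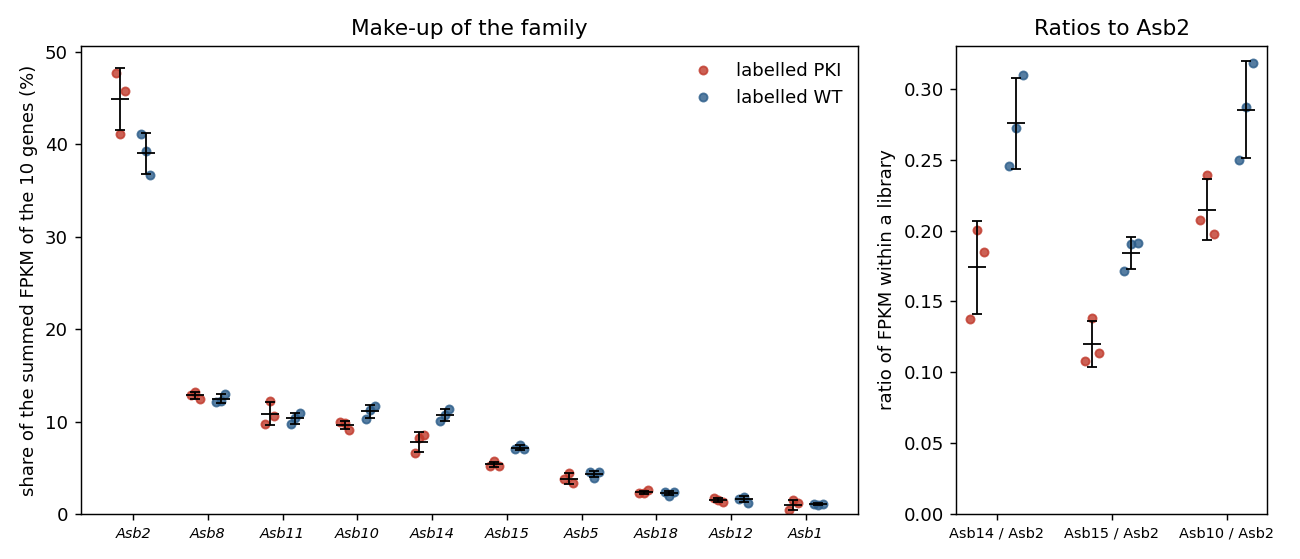
Left, the percent of the summed FPKM of the 10 Asb genes that each gene made up in each library; right, the FPKM of Asb14, Asb15 and Asb10 divided by that of Asb2 in the same library; red is labelled PKI, blue is labelled WT, and bars are the mean and SD of 3 libraries. The share of Asb2 is 41.2% to 47.7% in libraries labelled PKI and 36.7% to 41.1% in WT libraries. The 3 ratios to Asb2 do not overlap between the groups, which is largely set by the choice of genes.

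Of the 8 other Asb genes in the table, 2 reached the level for testing and 0 were called in limma (1 at an unadjusted p under 0.05, Asb3, which was higher). Asb3 was at 1.20, 1.29 and 1.08 FPKM in libraries labelled PKI, against 0.908, 0.909 and 0.822 FPKM in WT libraries, with every library labelled PKI above every WT library, which held for 51.3% of all tested genes (log2 change 0.22, adjusted p = 0.0512, and 0.460 after scaling). Coding genes on the opposite strand overlap Asb3, Erlec1 at a mean of 11.0 FPKM and Chac2 at 7.20 FPKM, so its value is uncertain. Asb13 overlapped between the groups (2.20 ± 0.267 FPKM in libraries labelled PKI and 1.71 ± 0.296 FPKM in WT, SD, n = 3 each; limma adjusted p = 0.108). Asb4, Asb6, Asb7 and Asb16 had means of 0.290 to 0.910 FPKM over the 6 libraries. Asb16, the lowest of them, was at 0.216, 0.122 and 0.226 FPKM in libraries labelled PKI, against 0.333, 0.411 and 0.430 FPKM in WT libraries, without overlap and below the level for testing. Asb17 was listed at 0 in every library, as was Asb9, the X-linked neighbour of Asb11.

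Genes of the ligase core that the receptors share lay around the median of all genes. Of 14 tested genes of cullin 5, its adaptors and its regulation by the ubiquitin-like protein NEDD8, 6 rose and 0 fell as deposited, with a median log2 change of 0.21, equal to that of all genes, where 36.4% of all tested genes were called higher, a share near that of the list. After scaling 0 were called by limma (2 at an unadjusted p under 0.05, both higher), against 8.93% of all tested genes called higher. The scaffold gene Cul5 was at 4.23 ± 0.168 FPKM in libraries labelled PKI and 4.19 ± 0.775 FPKM in WT (SD, n = 3 each), and Rnf7 at 29.5 ± 1.71 FPKM in libraries labelled PKI and 26.9 ± 1.52 FPKM in WT (SD, n = 3 each). Neither passed the test (limma adjusted p = 0.895 for Cul5 and 0.186 for Rnf7). The elongin genes Elob and Eloc rose 1.30-fold each (log2 changes 0.37 and 0.34; limma adjusted p = 0.0124 and 0.0103; 0.399 and 0.357 after scaling). Nedd8 rose 1.36-fold and Cand1, an exchange factor of cullin receptors, 1.53-fold (limma adjusted p = 0.00450 and 0.00657; 0.145 and 0.0770 after scaling).

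Other receptors with a SOCS box were higher more often than not as deposited. Of 16 tested, 9 rose and 0 fell, with a median log2 change of 0.31, against 36.4% of all tested genes called higher. After scaling 2 were called higher, Socs2 and Spsb4, and 0 lower, against 8.93% and 7.62% of all tested genes. At an unadjusted p under 0.05 in limma after scaling, 5 were higher and 3 lower. Socs2, an inhibitor of growth hormone signalling, was at 2.65 ± 0.167 FPKM in libraries labelled PKI and 1.37 ± 0.0366 FPKM in WT (SD, n = 3 each; log2 change 0.62, limma adjusted p = 0.00134). Spsb4 was at 1.89 ± 0.131 FPKM in libraries labelled PKI and 0.697 ± 0.241 FPKM in WT (SD, n = 3 each; log2 change 0.78, limma adjusted p = 0.00343). Socs7 rose 1.48-fold as deposited and was not called after scaling (limma adjusted p = 0.00517 and 0.0719).

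Genes of proteins reported as ASB substrates included the desmin gene Des, a target of ASB2 in heart muscle, which was at 457 ± 4.99 FPKM in libraries labelled PKI and 236 ± 13.6 FPKM in WT (SD, n = 3 each; log2 change 0.95 as deposited and 0.70 after scaling; limma adjusted p = 0.000301). The filamin A gene Flna was at 9.93 ± 1.47 FPKM in libraries labelled PKI and 5.75 ± 0.681 FPKM in WT (SD, n = 3 each; log2 change 0.69, limma adjusted p = 0.00581). Ckb, the brain creatine kinase and a target of ASB9, rose 1.76-fold (limma adjusted p = 0.00287), in libraries where Asb9 itself was listed at 0. Of 10 such genes, 6 were tested, 4 rose and 0 fell as deposited, with a median log2 change of 0.63, against 36.4% of all tested genes called higher; 3 were called higher after scaling (Des, Flna and Ckb), against 8.93%. RNA levels say nothing of the breakdown of these proteins, which was not measured. Flna and the TNF receptor gene Tnfrsf1b, the other gene that rose, are also expressed outside cardiomyocytes. Summed fibroblast, macrophage and smooth muscle markers were also higher in libraries labelled PKI, as given below. What part those cell types had in the levels of Flna and Tnfrsf1b was not tested.

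Of 16 tested muscle ubiquitin ligases of other families, 8 rose and 1 (Klhl33) fell in limma as deposited, with a median log2 change of 0.28, against 36.4% of all tested genes called higher and 2.96% lower. After scaling, which moves all genes down, 0 were called higher (2 at an unadjusted p under 0.05) and 3 lower (Klhl33, and Fbxo21 and Klhl30, which were negative but not called as deposited), with a median of 0.03, against 8.93% called higher and 7.62% lower. None of the 8 that rose was called lower after scaling. Trim54, which encodes a RING protein of the sarcomere, was at 95.8 ± 0.190 FPKM in libraries labelled PKI and 75.3 ± 1.40 FPKM in WT (SD, n = 3 each; log2 change 0.34, limma adjusted p = 0.00322; 0.300 after scaling). The membrane repair ligase gene Trim72 rose 1.32-fold and Klhl40, a cullin 3 receptor of the thin filament, 1.56-fold (limma adjusted p = 0.00437 and 0.00651; 0.170 and 0.0629 after scaling). The atrophy genes Fbxo32 and Trim63 did not pass (log2 changes 0.09 and 0.04; limma adjusted p = 0.408 and 0.709).

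**Figure D4:**
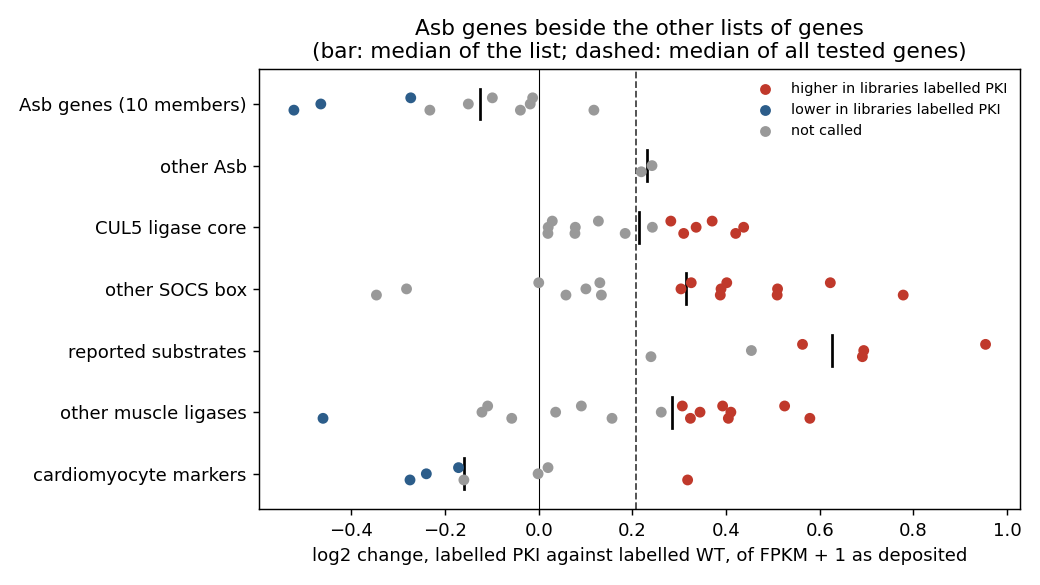
Log2 change as deposited (positive is higher in libraries labelled PKI) of each tested gene of 7 lists, coloured by whether limma called it higher (red), lower (blue) or neither (grey); bars mark the median of a list and the dashed line that of all tested genes. The Asb genes have a median of −0.12 and the cardiomyocyte markers one of −0.16, and the medians of the 5 lists between them lie between 0.21 and 0.63.

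The labelled tissue carried its markers. Summed FPKM of 7 cardiomyocyte markers was 9192 to 10149 in libraries labelled PKI and 8819 to 9586 in WT libraries. Without Actc1, the most abundant of them, the sum of the other 6 was 4912 to 5361 in libraries labelled PKI and 5433 to 5726 in WT libraries, so that 1 gene turned its direction. As deposited 3 of the 7 were called lower (Tnni3, Myl2 and Pln) and 1 higher (Actc1), and after scaling 5 were called lower (these 3 with Tnnt2 and Ryr2) and 0 higher, beside 3 and 5 of the 10 Asb genes. Of 11 skeletal muscle markers, 1 reached the level for testing, Casq1, which was not called, and Myh4 was listed at 0 in every library; their sum was 2.97 to 6.25 FPKM in libraries labelled PKI and 2.49 to 2.92 FPKM in WT libraries. All 6 macrophage markers rose, 5 of them also after scaling (83.7 to 87.4 summed FPKM in libraries labelled PKI and 30.4 to 41.2 in WT libraries), as did 6 of 7 fibroblast markers, the same number as after scaling (253 to 330 in libraries labelled PKI and 85.2 to 126 in WT libraries). The other fibroblast marker, Pdgfra, overlapped between the groups and was not called (limma adjusted p = 0.0657, and 0.344 after scaling). Of 4 smooth muscle markers 2 rose, 1 after scaling (66.7 to 113 summed FPKM in libraries labelled PKI and 34.8 to 52.1 in WT libraries), and of 5 endothelial markers 1, Pecam1, while after scaling 1 was called, Kdr, which was lower (64.8 to 71.9 in libraries labelled PKI and 59.4 to 63.9 in WT libraries). Over all tested genes, 36.4% were called higher and 2.96% lower as deposited, and 8.93% higher and 7.62% lower after scaling. The 5 lymphocyte markers stayed below the level for testing (0.205 to 0.391 summed FPKM in libraries labelled PKI and 0.104 to 0.289 in WT libraries). Summed atrial markers were at 12.9, 20.8 and 115 FPKM in libraries labelled PKI, against 109, 61.0 and 140 FPKM in WT libraries. Of 4 tested, 0 were called (1 at an unadjusted p under 0.05, lower; median log2 change −1.56). What part these cell types had in the levels of the Asb genes was not tested. With all values divided by the summed cardiomyocyte markers, a scaling chosen after seeing the data, Asb14, Asb15 and Asb10 were again the 3 called lower, where 2.61% of all tested genes were. With Actc1 left out of that sum, Asb14 and Asb15 were called lower, where 1.64% of all tested genes were, Asb10 was not called, and Asb2 was called higher (log2 change 0.23).

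The genes whose pattern over the 6 libraries was most like that of Asb14 were Kcnj3, which encodes a potassium channel subunit (Pearson r = 0.981), the ephrin gene Efnb3 (r = 0.973) and Pln, the phospholamban gene (r = 0.973). Each was lower in libraries labelled PKI, Kcnj3 at 2.12 ± 0.440 FPKM against 3.65 ± 0.376 FPKM in WT and Pln at 220 ± 5.53 FPKM against 260 ± 9.76 FPKM in WT (SD, n = 3 each). For Asb2 they were Kctd5 (r = 0.985), Mrpl43 (r = 0.984) and Gucd1 (r = 0.984). These are descriptions over 6 libraries, picked as the highest of all tested genes, and the 6 points share the difference between the groups.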

How the data were processed

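RNA of left ventricle was measured in 6 libraries. The deposited values are FPKM, 1 per Ensembl gene and library, per the deposited table; per the submitters' processing notes CASAVA, Bowtie 0.12.2 and mm9 were used, with no role given. Which program and annotation gave the FPKM is not given in the sources used here. Per the labels' protocols the Illumina TruSeq RNA kit was used, which does not mark strand. Low values fell on no whole-read steps, so the depth is unknown, and counting intervals are left out. Of 52550 identifiers, 52403 (99.72%) are in GENCODE M21 (GRCm38), from which positions were looked up.

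The 9907 genes averaging 1 FPKM or more were tested on log2(FPKM + 1), a scale that understates the change of low genes, with limma 3.58.1 in R 4.3.3 (variance trend, two-sided, Benjamini-Hochberg over all tested genes, called at adjusted p under 0.05). The procedure was tested on simulated data. The alternatives run were median-of-ratios scaling, scaling to the nuclear FPKM total (mitochondrial genes and their copies removed), a pseudocount of 0.1 or 0.5, a filter at 5 FPKM or none, the replicate number as a block, and the omission of each library; scaling to cardiomyocyte markers, with and without Actc1, was added after seeing the data. The replicate numbers are not stated to pair samples, so they were not taken as pairs. As a side check, same-numbered libraries did not deviate together (r = −0.10, 0.00 and 0.05).

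The 10 genes and the lists were chosen with earlier results of these data known. Named genes were all Asb genes, Ppargc1a, and the 3 genes most alike to 2 members. Of the ligase core, other SOCS box, substrate, other muscle ligase and cardiomyocyte lists, the 3 genes with the smallest p were also named. Of the other marker lists, only Casq1 and Pecam1 were named by that rule, and its other picks are not named. Cul5, Rnf7, Elob, Tnfrsf1b, Fbxo21, Fbxo32, Klhl30, Klhl33, Trim63, Myl2, Tnnt2, Ryr2, Kdr, Pdgfra, Myh4, Spcs3, Erlec1, Chac2 and the promoters shown were chosen after values were seen. One gene of the list of reported substrates is not reported here and was left out of that list's counts.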

Additional observations from a re-analysis of the deposited data

How the results depend on the processing

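Asb14 and Asb15 were called lower under every alternative run. The count of called Asb genes was 3 as deposited, 5 after median-of-ratios scaling and 5 when scaled to the nuclear FPKM total; Asb5 and Asb8 were added in both, while it was 2 to 3 when a library was left out. When scaled to the cardiomyocyte markers other than Actc1 it was 3, but with Asb2 higher and Asb10 lost. Without the second library labelled PKI, Asb5 was called in place of Asb10. With the replicate block the count was 2, as Asb10 was lost, and 2849 genes were called over the whole table, with 25 in the 5 other pathway lists. Of all genes, 3902 were called as deposited, 1925 at a minimum mean of 5 FPKM, 1640 after median-of-ratios scaling (885 higher and 755 lower), 1622 when scaled to the nuclear total (1019 higher and 603 lower), 1908 when scaled to cardiomyocyte markers, and 2344 to 3425 when a library was left out (2344 without WT replicate 3 and 2498 without PKI replicate 3). In the 5 other lists 28 were called as deposited, 13 at a minimum of 5 FPKM (fewer genes tested), 8 after median-of-ratios scaling, 10 when scaled to the nuclear total, 15 when scaled to cardiomyocyte markers and 20 to 26 when a library was left out. With Actc1 left out of the cardiomyocyte markers, 35 were called in these lists, all higher, and 5292 over the whole table (5130 higher and 162 lower). Ppargc1a was called lower after median-of-ratios scaling (log2 −0.40) and when scaled to the nuclear total (−0.36); its log2 change was −0.16 as deposited.

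Directions turned between deposited and other values in genes not called as deposited. Asb2 turned to −0.14 after median-of-ratios scaling and −0.092 when scaled to the nuclear total. When scaled to the cardiomyocyte markers other than Actc1, Asb8 turned to 0.065, Asb11 to 0.091 and Asb18 to 0.069. When a library was left out, the log2 change of Asb1 ran from −0.35 to 0.16, of Asb11 from −0.076 to 0.036, of Asb12 from −0.22 to 0.0135 and of Asb18 from −0.073 to 0.026. The cause of the other moves was not tested. Depth is unknown, so how far it limits the low members Asb1 and Asb12 cannot be given.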
